A study of Mus musculus with 51 samples.

Results

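The carboxylesterases described here are 10 genes of mouse liver, chosen by name from the expression matrix of the series: Ces1c, Ces1d, Ces1e, Ces1f, Ces1g, Ces2a, Ces2c, Ces2e, Ces3a and Ces3b. The choice was made with earlier results of these data known, so counts of called members are a description and not independent support. These genes are 10 of the 33773 gene symbols in that matrix, and all 10 passed the minimum level for testing in hepatocytes and in liver. Each was followed across 6 groups of RNA-seq libraries, 15 from hepatocytes and 6 from liver. The study asked what adult liver cells express once the FoxA transcription factors, or HNF4a, are removed.

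The FoxA triple null hepatocytes (4 libraries) came from mice with loxP-flanked alleles of FoxA1 and FoxA2 (FoxA1 L/L, FoxA2 L/L) and no FoxA3 (FoxA3-/-), injected at 8 weeks of age with an adeno-associated virus, AAV8, that drives Cre recombinase from the hepatocyte promoter Tbg. The FoxA3 null hepatocytes (4 libraries) had the same alleles and an AAV expressing GFP, so the FoxA3 deficiency and the virus are shared by both groups. FoxA1/A2 lox hepatocytes (3 libraries) carried no deletion. FoxA1/A2 Cre alfp hepatocytes (4 libraries) lacked FoxA1 and FoxA2 through a Cre named alfp, with FoxA3 present. The liver set held 2 libraries labelled HNF4a control and 4 labelled HNF4a null, a label that stands for loss of HNF4a in the adult liver by a means that the labels do not give. Ages other than that of injection, and whether replicates were separate animals, are not given in the sources used here, so p-values measure the spread between these libraries only.

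Carboxylesterases are serine hydrolases that cut ester and amide bonds. In hepatocytes most of them sit in the lumen of the endoplasmic reticulum, where they activate or clear ester drugs and take part in the turnover of stored and secreted lipid. The mouse has many more of these genes than humans, arranged in arrays of close copies. Members of the Ces1 branch are related to human CES1, the main liver carboxylesterase, members of the Ces2 branch to human CES2, and Ces3a and Ces3b form a separate branch. FoxA factors and HNF4a are DNA-binding proteins that occupy the regulatory regions of many hepatocyte genes.

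In the gene order of the RefSeq annotation (GRCm38.p6), the Ces1 genes lie side by side from Ces1a to Ces1h, followed by Ces5a, and the Ces2 genes, Ces3a, Ces3b and Ces4a form another run, both on chromosome 8. Promoter windows, 250 bases before to 50 after the annotated start, were present for 7 of the 10 genes. No window was supplied for Ces1d, Ces1f or Ces3a. The 250 bases before the start are printed for 4 genes. Ces1c and its non-member neighbour Ces1b are shown because both nearly vanished from the triple null and because theirs, of the windows searched, held a forkhead core. Ces1g is shown because it fell as far with no such match, and Ces2e because it did not fall. Capitals mark the forkhead core.

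Ces1c: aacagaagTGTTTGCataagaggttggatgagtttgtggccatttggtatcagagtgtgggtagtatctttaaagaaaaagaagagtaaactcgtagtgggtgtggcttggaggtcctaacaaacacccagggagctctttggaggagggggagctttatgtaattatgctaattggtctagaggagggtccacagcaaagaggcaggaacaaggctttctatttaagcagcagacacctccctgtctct
Ces1b: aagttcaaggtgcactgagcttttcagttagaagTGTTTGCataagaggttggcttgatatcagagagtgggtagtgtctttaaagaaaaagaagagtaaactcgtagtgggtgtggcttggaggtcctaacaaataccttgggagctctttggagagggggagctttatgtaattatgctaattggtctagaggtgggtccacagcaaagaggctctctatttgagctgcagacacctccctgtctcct
Ces1g: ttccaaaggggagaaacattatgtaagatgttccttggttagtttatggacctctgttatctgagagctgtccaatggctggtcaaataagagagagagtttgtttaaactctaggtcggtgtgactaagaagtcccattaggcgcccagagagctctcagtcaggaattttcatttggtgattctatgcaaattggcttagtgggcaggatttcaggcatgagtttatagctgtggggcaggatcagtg
Ces2e: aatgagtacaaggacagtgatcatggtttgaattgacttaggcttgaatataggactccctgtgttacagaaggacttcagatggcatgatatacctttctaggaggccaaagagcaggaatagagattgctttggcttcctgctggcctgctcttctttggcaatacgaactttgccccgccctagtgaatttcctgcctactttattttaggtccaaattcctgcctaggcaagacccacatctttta

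These stretches are RefSeq sequence of GRCm38.p6, written 5′ to 3′ on the strand of the gene. Ces1c is chr8:93131284-93131533 on the minus strand. Ces1b is chr8:93079941-93080190 on the minus strand. Ces1g is chr8:93337210-93337459 on the minus strand. Ces2e is chr8:104926010-104926259 on the plus strand. The forkhead core was searched on both strands as TGTTTAC, with TATTTAC and with TGTTTGC as the other accepted spellings; on a strand, 1 position cannot match more than 1 of them. It was found in 3675 of 32851 promoter windows of this length (11.2%). The match was TGTTTGC from -242 to -236 relative to the start of Ces1c, and the same letters from -216 to -210 in Ces1b. Ces1b has 2 annotated starts with overlapping windows; the stretch belongs to one, and from the other this match lies at -139 to -133. The other 6 member windows held no match. An HNF4 core, searched on both strands as CAAAGTNCA and also as CAAAGGNCA, was in 3.31% of all windows and in 0 of the 7 member windows. The Ces1b and Ces1c stretches were identical at 76.9% of aligned positions, against 46.2% to 67.0% for the other pairs among 8 stretches compared (the 7 members and Ces1b). A match is a run of letters and does not show that a factor binds there.

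Expression values are RPKM, reads scaled by gene length and library size, as the authors deposited them, and are given as mean ± SD. Read numbers were not used, so absolute depth is unknown; relative depth ran from 1.0 to 1.07 in the libraries labelled HNF4a null to 2.49 to 4.07 in Cre alfp. All 8 hepatocyte markers on the list were above 0 in every group. The targeted genes were checked first. Foxa2 was 0.366 ± 0.103 RPKM (n = 4) in the triple null, 13.7 ± 4.58 (n = 4) in FoxA3 null, 1.09 ± 0.127 (n = 4) in Cre alfp and 12.5 ± 6.26 (n = 3) in lox. Foxa1 was 3.28 ± 0.283 RPKM (n = 4) in the triple null, 8.50 ± 1.85 (n = 4) in FoxA3 null, 1.14 to 1.34 in the 4 Cre alfp libraries and 6.72 ± 1.81 (n = 3) in lox. Of its control mean 38.6% was thus left in the triple null and 18.4% in Cre alfp, on RPKM; the authors' deposited table gives Foxa1 a smaller loss in the triple null against FoxA3 null, a log2 fold change of -0.60 (adjusted p = 0.00138). Foxa3 was 0.0112 RPKM or less in every FoxA3 null library and 0.0114 or less in every triple null library, against 19.0 or more in each lox library. Hnf4a went against its label, at 524 ± 27.3 RPKM (n = 4) in the libraries labelled HNF4a null against 122 ± 5.38 (n = 2) in control. The whole-gene value does not show which exons those reads came from. Every direction drawn from this pair of groups therefore rests on the labels. Close copies within the Ces1 and Ces2 branches can share reads, and how the authors assigned such reads is not given in the sources used here, so single values within a branch are uncertain to that extent.

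In hepatocytes with no deletion, Ces3a and Ces1c were the most abundant members. In lox, Ces3a was at 1042 ± 238 RPKM (n = 3) and Ces1c at 990 ± 97.1 (n = 3), and their libraries overlapped. Ces3b, Ces1d, Ces1f and Ces2a followed at means of 363 to 152 RPKM, each overlapping its neighbour in the order. Ces1e, Ces2e and Ces1g lay between 43.3 and 36.8 RPKM and Ces2c was last at 14.2. In FoxA3 null the order of the means was Ces1c, Ces3a, Ces1f, Ces1d, Ces2a, Ces3b, Ces2e, Ces2c, Ces1e and Ces1g; Ces1c and Ces3a stood clear of the next gene, and from Ces1f on every gene overlapped its neighbour. In the HNF4a control livers Ces1c led at 1237 ± 63.9 RPKM (n = 2), followed by Ces1d at 935 ± 33.2 (n = 2), which was at 270 ± 137 (n = 3) in lox hepatocytes.

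**Figure D1:**
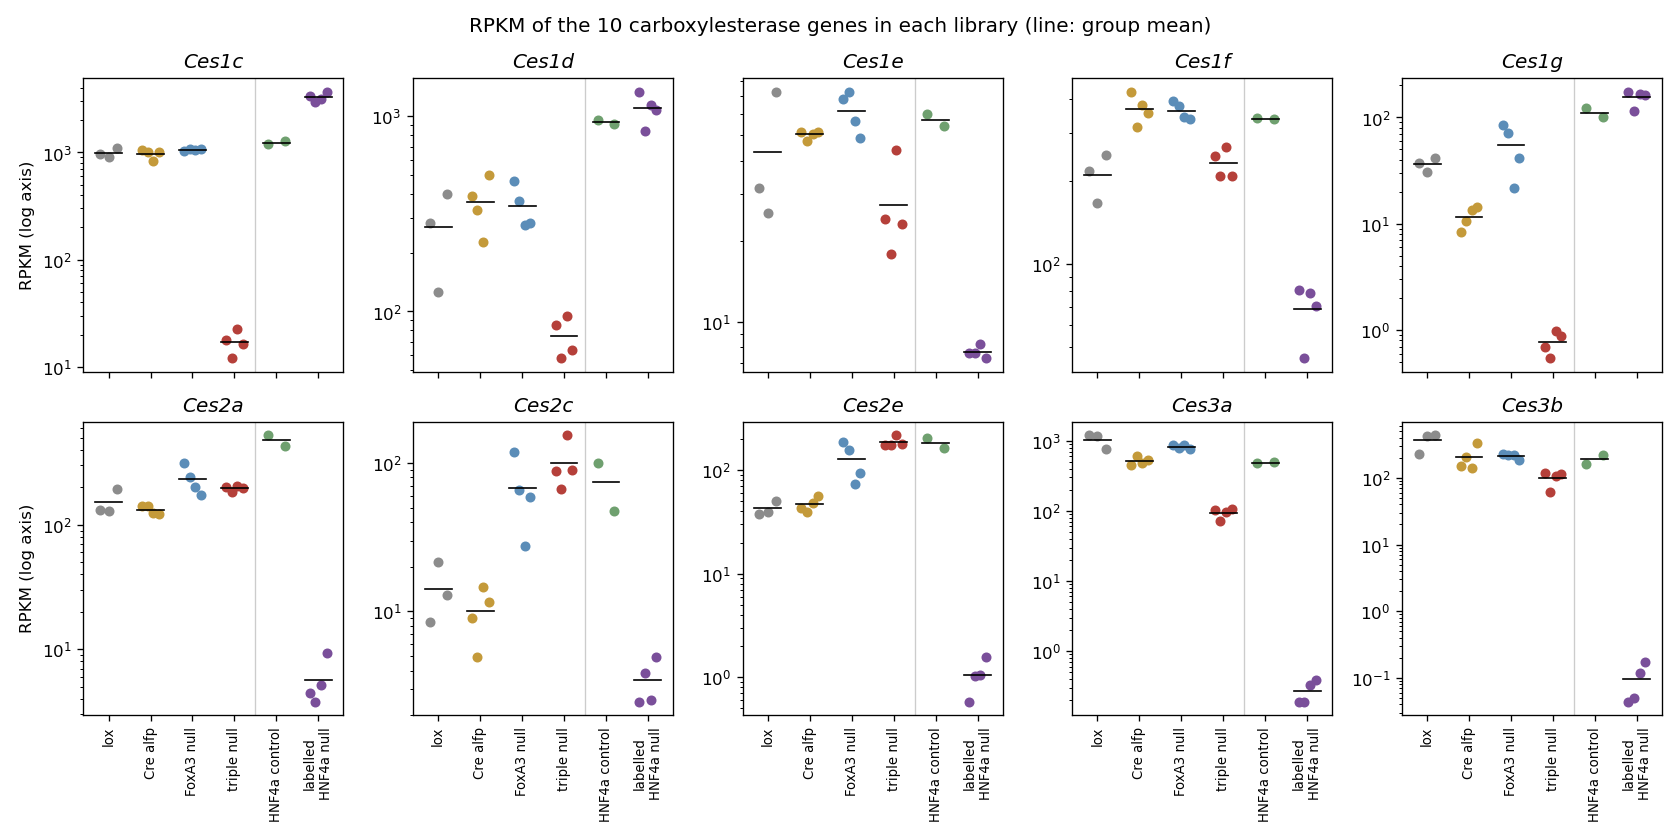
RPKM (log axis) of each of the 10 genes in every library, by group, with 1 point per library and a line at the group mean; the grey line divides hepatocytes from liver. The triple null points of Ces1c, Ces1d, Ces1g and Ces3a lie below all other hepatocyte points, and the points labelled HNF4a null of Ces2a, Ces2e, Ces3a and Ces3b lie below every other point of those genes.

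The comparison of triple null with FoxA3 null asks what the loss of FoxA1 and FoxA2 does in hepatocytes that already lack FoxA3. Of the 10 carboxylesterases, 6 fell and 0 rose. Over all 11500 genes tested, 3.95% were called lower and 4.17% higher. These shares are set beside the counts as a description, because the members were chosen with earlier results of these data known. A call required a Benjamini-Hochberg adjusted p under 0.05 in limma and a difference of at least 1 on the log2(RPKM + 1) scale, which understates changes of low genes. The median difference was -1.17 for the 10 members and 0.05 for all genes tested. The libraries of both groups did not overlap for 7 members, against 27.9% of all genes.

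Ces1c, known as the carboxylesterase secreted into mouse plasma, fell furthest among the abundant members. The FoxA3 null libraries held 1037, 1076, 1062 and 1089 RPKM, the triple null libraries 17.8, 11.99, 22.6 and 16.2. All 4 deleted libraries lay far below every control, and 1.61% ± 0.409 (SD, n = 4) of the control mean was left. The log2 difference was -5.91 (SE 0.15, adjusted p = 3.19e-12, limma). By mean level Ces1c was the first of the 10 in FoxA3 null and the ninth in the triple null.

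Ces1g, a liver esterase tied to triglyceride metabolism, left 1.41% ± 0.357 (SD, n = 4) of its control mean. It was at 84.6, 72.0, 21.8 and 41.8 RPKM in FoxA3 null and at 0.692, 0.542, 0.986 and 0.877 in the triple null. The controls spread widely, yet the lowest of them was far above the highest deleted library. The log2 difference was -4.81 (SE 0.32, adjusted p = 6.21e-08, limma). All 4 triple null libraries were under the minimum level of 1 RPKM. Ces1g thus entered every test that involves the triple null through the groups where it is high, which limits what those p-values show. With no minimum level, 6 members were called in this comparison too.

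Ces3a was at 879, 796, 874 and 759 RPKM in FoxA3 null and at 103, 72.8, 96.3 and 107 in the triple null. That is 8.73-fold lower in the ratio of the means, with a log2 difference of -3.13 (SE 0.16, adjusted p = 3.75e-09, limma). Ces3b, its neighbour in the same array, fell less, from 229, 222, 222 and 186 RPKM to 118, 61.5, 106 and 114. The groups did not overlap for either Ces3 gene. The Ces3b difference was -1.13 (SE 0.28, adjusted p = 0.00812, limma), and without triple null replicate 2, the lowest library, it was -0.92 and no longer reached the minimum size.

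Ces1d, also known as triacylglycerol hydrolase for its role in supplying lipid to secreted lipoproteins, was at 465, 367, 279 and 283 RPKM in FoxA3 null and at 85.6, 57.5, 94.4 and 63.5 in the triple null. No libraries overlapped, and the log2 difference was -2.19 (SE 0.32, adjusted p = 0.000173, limma). Ces1e, known as egasyn for holding beta-glucuronidase in the endoplasmic reticulum, was at 68.3, 72.8, 56.3 and 48.9 RPKM against 24.2, 17.9, 44.0 and 23.2. Here the highest deleted library came close to the lowest control, and the log2 difference was -1.21 (SE 0.29, adjusted p = 0.00653, limma).

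The other 4 members were not called. Ces1f was lower in all 4 triple null libraries, at 208 to 268 RPKM against 336 to 391, but its log2 difference of -0.64 (SE 0.14, adjusted p = 0.00305, limma) was under the minimum size. Ces2a, a drug-metabolizing liver esterase, was at 198 ± 9.39 RPKM (n = 4) in the triple null and at 233 ± 61.9 (n = 4) in FoxA3 null, which differed by -0.20 on the log2 scale (adjusted p = 0.405, limma). Ces2c, a triglyceride hydrolase of liver and gut, was at 99.2 ± 37.4 RPKM (n = 4) against 67.5 ± 37.5 (n = 4), with overlapping libraries and an adjusted p of 0.256 (limma). Ces2e was at 186 ± 21.0 RPKM (n = 4) against 129 ± 53.1 (n = 4), also overlapping, with an unadjusted p of 0.0201 and an adjusted p of 0.0622 (limma). Thus 4 of the 5 Ces1 members and both Ces3 members were called lower, and 0 of the 3 Ces2 members were called. The branches were not tested against each other.

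With these shifts the order of the members changed: in the triple null Ces1f led at 233 ± 29.3 RPKM (n = 4), followed by Ces2a and Ces2e, and Ces1c and Ces1g came last. Summed RPKM of the 10 genes was 1032 ± 146 (n = 4) in the triple null and 3363 ± 319 (n = 4) in FoxA3 null. The Ces2 members made up 47.0% ± 2.48 (n = 4) of the sum in the triple null and 12.5% ± 3.09 (n = 4) in FoxA3 null, although no Ces2 gene was called higher. In bulk RNA, fewer cells of a type and less RNA per cell cannot be told apart. The summed RPKM of 8 hepatocyte markers was also lower in the triple null, at 13120 to 18010 against 25100 to 37620. Gene by gene, 2 of these 8 were called lower and 1 higher, with a median log2 difference of -0.39. The summed neutrophil list was at 0.702 to 1.70 in FoxA3 null and at 9.28 to 111 in the triple null, with all 6 genes in the matrix and Ly6g at 0 throughout. The adipocyte list was at 46.9 to 62.4 against 1.52 to 2.99, nearly all of it Cidec, with Lep at 0 and Plin1 at no more than 0.00984. The sinusoidal endothelium list was at 5.08 to 8.28 in the triple null against 10.8 to 23.1, and the erythroid list at 3.10 to 11.4 against 31.97 to 45.8. Of the 6 erythroid genes 4 were in the matrix and 2 were tested, of which 1 was called lower and 1 higher. The sums of the other 4 of 9 marker lists overlapped. The part of these cell types in the carboxylesterase differences was not tested.

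**Figure D2:**
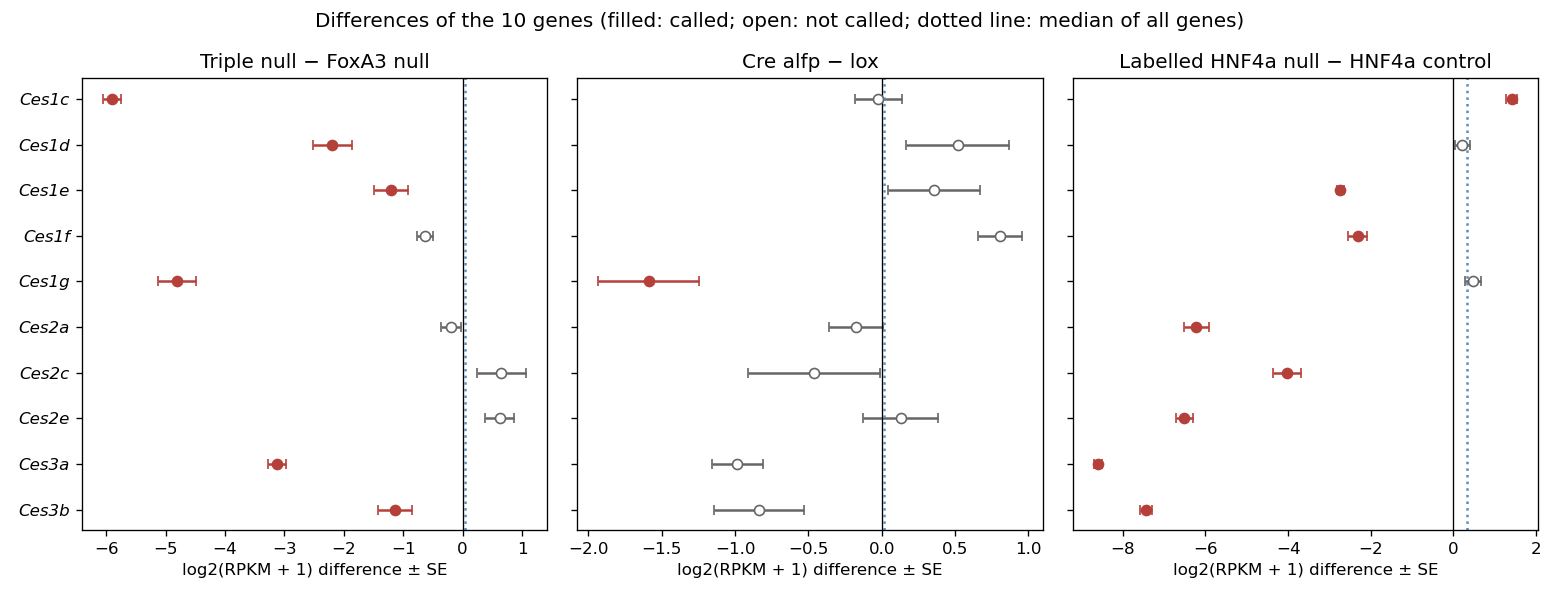
Difference in log2(RPKM + 1) with its standard error for each gene in 3 comparisons; filled red points were called, open points were not, and the dotted line is the median of all genes tested, and the x axes differ in range. Ces1c lies at -5.91 in the first panel, at -0.02 in the second and at 1.40 in the third.

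The authors' deposited table of the same comparison gives values that can be set beside these. In that table Ces1g was at -6.22, Ces1c at -6.01, Ces3a at -3.18, Ces1d at -2.38, Ces1e at -1.23, Ces3b at -1.13 and Ces1f at -0.75 as log2 fold changes. The authors' deposited table has Ces2c at 0.95 with an adjusted p of 0.00206, where limma on RPKM gave 0.65 with an adjusted p of 0.256.

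Among the other 10 carboxylesterase genes only Ces1b and Ces2g were expressed above the minimum in hepatocytes. Ces1b was at 22.7, 21.4, 17.3 and 18.8 RPKM in FoxA3 null and at 0.405, 0.594, 1.08 and 0.657 in the triple null. It thus left 3.41% ± 1.42 (SD, n = 4) of the control mean, and its log2 difference was -3.65 (SE 0.18, adjusted p = 2.36e-09, limma). Its triple null values other than 1.08 were under the minimum level of 1 RPKM, so Ces1b too was let in by the groups where it is high. Ces2g was at 14.5 to 17.7 RPKM in 3 FoxA3 null libraries and 9.45 in replicate 3, against 16.5 to 24.8, and was not called. Tested genes close to both arrays were examined as well: Fto, Aktip, Rbl2, Nudt21 and Ogfod1 around the Ces1 array, and Pdp2, Nae1, Dync1li2, Cbfb, D230025D16Rik and Tradd around the Ces2 and Ces3 array. Of these 11 neighbours limma called 0, while 1 had an unadjusted p under 0.05, Nae1 at 0.36 (adjusted p = 0.094).

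The comparison of Cre alfp with lox asks about the loss of FoxA1 and FoxA2 where FoxA3 remains. Of the 10 members 1 fell and 0 rose, where 1.1% of all genes were called lower and 1.29% higher. Ces1g was at 37.5, 31.0 and 41.7 RPKM in lox and at 8.42, 10.5, 13.4 and 14.4 in Cre alfp. No libraries overlapped, and the log2 difference was -1.59 (SE 0.34, adjusted p = 0.015, limma). The call was lost without lox replicate 1 (adjusted p = 0.0646), lox replicate 3 (0.0524) or Cre alfp replicate 1 (0.0515), each by limma, with differences of -1.57, -1.49 and -1.45. Ces1b was called too, at 40.2, 55.9 and 38.1 RPKM in lox and 10.9 to 18.4 in Cre alfp (log2 difference -1.49, adjusted p = 0.000336, limma).

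Ces1c RPKM, so low in the triple null, was 1058, 1000, 827 and 1019 in the Cre alfp libraries against 959, 913 and 1099 in lox. The libraries overlapped and the log2 difference was -0.02 (SE 0.16, adjusted p = 0.963, limma). Ces3a was at 450, 610, 485 and 534 RPKM against 1195, 1164 and 768, so all Cre alfp libraries lay lower. Its log2 difference of -0.98 (SE 0.17, adjusted p = 0.00413, limma) just missed the minimum size. It was called with median scaling (-1.01) and without lox replicate 3 (-1.19) or Cre alfp replicate 2 (-1.06). Ces1f was higher, at 316 to 424 RPKM against 167 to 249, with a log2 difference of 0.81 (SE 0.15, adjusted p = 0.00539, limma), also under the minimum size. Adjusted p for the other 6 ranged from 0.142 for Ces3b to 0.853 for Ces2e (limma); Ces3b was called without Cre alfp replicate 4 (-1.10). The hepatocyte marker sum was 20850 to 26190 in Cre alfp against 26370 to 30400 in lox, and the erythroid sum 11.6 to 25.9 against 80.5 to 90.3. Of the 8 hepatocyte markers 0 were called, and of 2 erythroid genes tested 1 was called lower. The other 7 of 9 marker lists overlapped, and the part of these cells was not tested.

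The difference between these deletion effects was tested directly as an interaction, the effect in FoxA3-deficient hepatocytes minus the effect with FoxA3 present. It was negative and called for 6 members, where 3.54% of all genes were called lower and 3.28% higher. The log2 interaction was -5.89 (SE 0.22, adjusted p = 5.19e-10) for Ces1c, -3.23 (SE 0.47, adjusted p = 0.000449) for Ces1g and -2.71 (SE 0.48, adjusted p = 0.00203) for Ces1d, all by limma. For Ces3a it was -2.14 (SE 0.23, adjusted p = 4.07e-05) and for Ces1f -1.44 (SE 0.20, adjusted p = 0.000329, limma). Ces1e was at -1.56 (adjusted p = 0.0264, limma), a call lost with no minimum level and on leaving out lox replicate 1 or 2, FoxA3 null replicate 2, or triple null replicate 2 or 4, with adjusted p of 0.0521 to 0.0744. Ces3b, at -0.30 (adjusted p = 0.676, limma), and the 3 Ces2 genes were not called. The means of deletion also differ between both pairs, virus against Cre alfp, and this cannot be told apart from the presence of FoxA3. The Foxa1 left by each deletion differed as well, as given above; its own interaction was 0.63 (adjusted p = 0.085, limma), and its part was not tested.

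The triple null was also set against lox and Cre alfp, with which it does not share FoxA3 status. A virus injection is not given here for either of those groups. Because the median gene was 0.13 higher in the triple null than in lox and 0.13 higher than in Cre alfp, and 0.10 higher in FoxA3 null than in lox, values here are relative to that median unless said otherwise; calls and adjusted p are those of the differences as tested. All 3 comparisons share samples with those above and are given side by side. Against lox, 5 members were called lower (5.81% of all genes) and 2 higher (7.72%); with median scaling 45.1% of called genes were higher, where 57.1% were without it. Ces1c was at -5.93, Ces1g at -4.54, Ces3a at -3.57, Ces3b at -1.97 and Ces1d at -1.84. Against Cre alfp, 4 members were called lower (5.03% of all genes) and 2 higher (5.26%), and median scaling moved the higher share of calls from 51.1% to 39.6%. Ces1c was at -5.90, Ces1g at -2.94, Ces3a at -2.58 and Ces1d at -2.35. Ces3b and Ces1e, at -1.12 and -1.06 relative to the median, missed the minimum size against Cre alfp as tested, at -0.996 and -0.94 with no median removed. Both were called with median scaling and with quantile normalization. Ces3b was also called with a pseudocount of 0.1 and on leaving out Cre alfp replicate 1 or 3 or triple null replicate 1, 3 or 4 (-1.04 to -1.14), and Ces1e on leaving out triple null replicate 3 (-1.18), all with no median removed. The authors' deposited table against Cre alfp has Ces3b at -1.31 and Ces1e at -1.05 as log2 fold changes. Their deposited p-values, adjusted here, were 3.55e-05 and 4.98e-06. In the authors' deposited table against control with no deletion, sign turned, Ces3b was at -2.10 and Ces1e at -0.84 (adjusted p = 0.127). Some marker lists also differed here. The hepatocyte sum was 13120 to 18010 RPKM in the triple null, 26370 to 30400 in lox and 20850 to 26190 in Cre alfp. The neutrophil sum was 9.28 to 111, 0.771 to 1.24 and 1.19 to 3.38 in that order. The adipocyte sum was 46.9 to 62.4, 0.704 to 1.33 and 1.32 to 12.3. The erythroid sum was 3.10 to 11.4, 80.5 to 90.3 and 11.6 to 25.9. Against lox 1 erythroid gene was called lower and 1 higher. The sinusoidal endothelium sum was 5.08 to 8.28, 10.98 to 19.38 and 7.30 to 33.12 in the same order of groups. The cholangiocyte sum was 2.11 to 4.54, 4.63 to 14.15 and 2.95 to 7.53. Both lists were thus lower than in lox without overlap, and overlapped with Cre alfp. Of 6 endothelial genes tested, 2 were called lower against lox and 3 against Cre alfp. The part of these cells was not tested.

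Ces2c and Ces2e were the members called higher in both. Ces2c was at 14.2 ± 6.60 RPKM (n = 3) in lox and 10.0 ± 4.14 (n = 4) in Cre alfp, but at 67.5 ± 37.5 (n = 4) in FoxA3 null and 99.2 ± 37.4 (n = 4) in the triple null. Ces2e was at 42.9 ± 7.02 (n = 3), 47.0 ± 7.22 (n = 4), 129 ± 53.1 (n = 4) and 186 ± 21.0 RPKM (n = 4) in the same order. Among the hepatocyte groups, both genes were thus low in those with FoxA3 and high in those without it. In the HNF4a control livers, where Foxa3 was at 29.4 ± 2.80 RPKM (n = 2), Ces2c was at 74.0 ± 37.3 (n = 2) and Ces2e at 184 ± 28.6 (n = 2), within the range of the FoxA3-deficient hepatocytes. FoxA3 null against lox called them higher, Ces2c at 2.09 (adjusted p = 0.00422) and Ces2e at 1.48 (adjusted p = 0.00129, limma), or 1.98 and 1.37 relative to the median, where 3.63% of all genes were called higher and 3.56% lower. Median scaling moved the higher share of all calls there from 50.5% to 36.3%, and both genes were called either way. FoxA3 genotype and, as far as is given here, virus injection change together between these groups and cannot be told apart. This pair of groups differed in 827 genes against 274 for Cre alfp and lox. The erythroid marker sum was 31.97 to 45.8 RPKM in FoxA3 null against 80.5 to 90.3 in lox, and the adipocyte sum 1.52 to 2.99 against 0.704 to 1.33. The other marker lists overlapped, and the part of these cells was not tested. Ces2g, the next Ces2 gene in level, was at 8.21 ± 1.21 RPKM (n = 3) in lox and 19.7 ± 3.56 (n = 4) in the triple null, and was called higher in that comparison, except with quantile normalization (0.99).

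**Figure D3:**
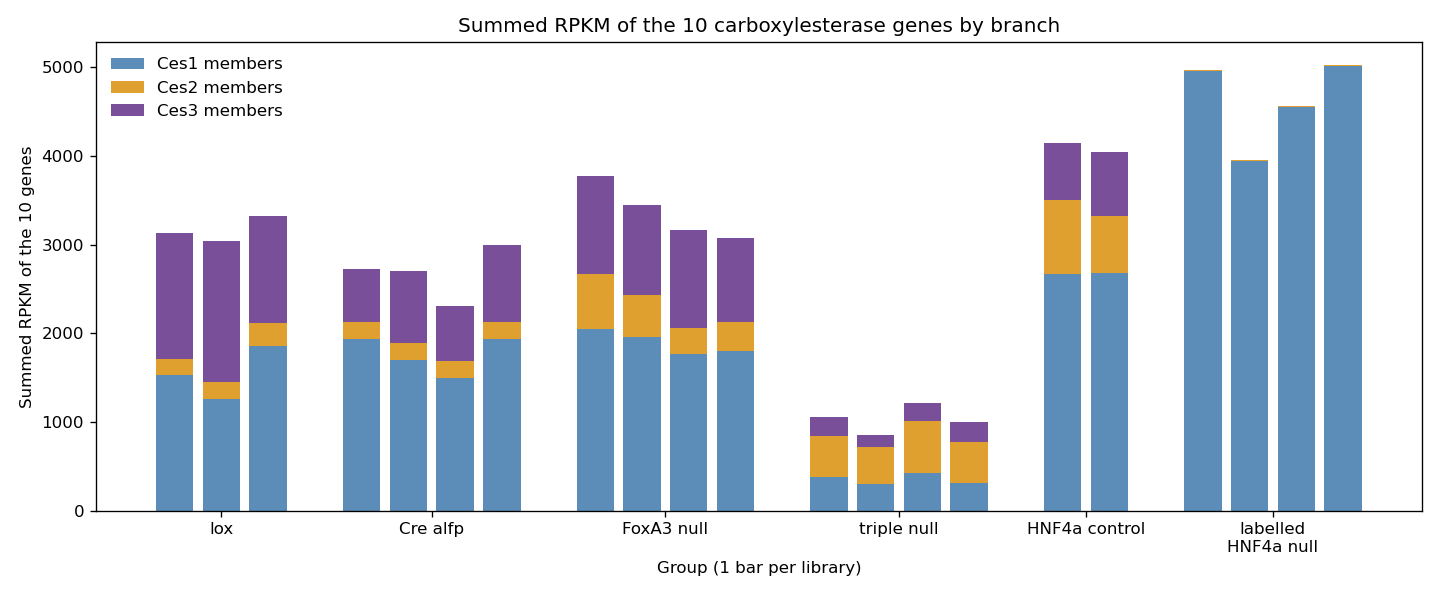
Summed RPKM of the 10 genes in each library (1 bar per library, from 0), divided into the Ces1, Ces2 and Ces3 members. The 4 triple null bars reach 856 to 1210, below all others, and the 4 bars labelled HNF4a null consist almost wholly of Ces1 genes.

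The liver comparison sets the libraries labelled HNF4a null, whose Hnf4a values go against that label, against control. Of the 10 carboxylesterases 7 fell in them and 1 rose, where 5.95% of 12434 tested genes were called lower and 8.58% higher. Ces3a and Ces3b, among the 7, reached the minimum level in the control libraries alone and so had to differ; 8 members were called with no minimum too, and 6 on leaving out either control library. The median gene was 0.34 higher in these libraries, so each difference is given as tested, with its SE and adjusted p, and then relative to that median. With median scaling 34.2% of called genes were higher, against 59% without, and the calls of all 10 members held under both. Libraries did not overlap for 8 members, against 67% of all genes.

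Ces3a and Ces3b nearly disappeared. Ces3a was at 487 and 494 RPKM in the HNF4a control libraries and at 0.187, 0.189, 0.323 and 0.391 in the libraries labelled HNF4a null, a log2 difference of -8.60 (SE 0.10, adjusted p = 2.84e-07, limma) and of -8.93 relative to the median. Ces3b was at 160 and 222 RPKM against 0.0434, 0.0503, 0.117 and 0.172, at -7.43 (SE 0.15, adjusted p = 5.85e-07, limma) and -7.77 relative to the median. On average 0.0555% of the control level was left for Ces3a and 0.0502% for Ces3b. On leaving out either of the control libraries, both genes missed the minimum level and were not tested, so these p-values rest on genes let in by the group where they are high.

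The Ces2 genes fell as well. Ces2e was at 205 and 164 RPKM in control and at 0.574, 1.02, 1.04 and 1.58 in the libraries labelled HNF4a null (log2 difference -6.51, SE 0.20, adjusted p = 2.8e-06, limma; relative, -6.85). Ces2a, at 523 and 431 RPKM against 4.47, 3.77, 5.18 and 9.33, was at -6.22 (SE 0.30, adjusted p = 1.66e-05, limma; relative, -6.56). Ces2c, at 100 and 47.6 RPKM against 2.45, 3.87, 2.55 and 4.92, was at -4.02 (SE 0.34, adjusted p = 0.000211, limma; relative, -4.35). The 2 control libraries of Ces2c differed widely from each other, and both lay above all 4 others.

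The Ces1 branch was split. Ces1e fell from 59.9 and 54.0 RPKM to between 7.28 and 8.27 (log2 difference -2.74, SE 0.09, adjusted p = 4.23e-06, limma; relative, -3.07). Ces1f fell from 340 and 336 RPKM to 80.3, 45.4, 78.6 and 70.4 (-2.32, SE 0.23, adjusted p = 0.000402, limma; relative, -2.65). Ces1c rose, from 1191 and 1282 RPKM to 3358, 2930, 3158 and 3688, so that every library labelled HNF4a null held more than any other library used here. Its log2 difference was 1.40 (SE 0.14, adjusted p = 0.000376, limma) and 1.07 relative to the median, and it was called with median scaling too. Ces1d was at 1101 ± 203 RPKM (n = 4) against 935 ± 33.2 (n = 2), and Ces1g at 155 ± 27.1 (n = 4) against 111 ± 15.4 (n = 2), with log2 differences of 0.22 (adjusted p = 0.355) and 0.47 (adjusted p = 0.0747, limma), neither called. Relative to the median these were -0.12 for Ces1d, of the other sign, and 0.13 for Ces1g.

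The summed RPKM of the 10 genes was 4626 ± 496 (n = 4) in the libraries labelled HNF4a null and 4095 ± 73.3 (n = 2) in control, but its make-up differed. The Ces1 members supplied 99.8% ± 0.0719 (n = 4) against 65.4% ± 1.38 (n = 2), and Ces1c alone 71.1% ± 3.16 (n = 4) against 30.2% ± 2.10 (n = 2). The hepatocyte marker sum was 20100 to 20410 in control and 8764 to 9833 with the HNF4a null label, and the cholangiocyte sum was 114 to 212 against 16.4 to 16.5, with all 7 of its genes above 0. Of the 8 hepatocyte markers 4 were called lower and 1 higher with that label. None of the 9 marker lists overlapped between the groups: hepatocyte, erythroid and adipocyte sums were lower with the HNF4a null label and the other 6 higher. The neutrophil sum was 2.98 to 14.2 against 0.723 to 1.78, the Kupffer and macrophage sum 71.2 to 85.4 against 59.5 to 65.8, and the adipocyte sum 0.677 to 0.987 against 4.33 to 4.36. Their part in these differences was not tested. The authors' deposited table of this comparison gives Ces3b -11.51, Ces3a -11.15, Ces2e -7.88, Ces2a -6.85, Ces2c -4.98, Ces1e -3.25, Ces1f -2.87 and Ces1c 0.99 as log2 fold changes. Ces1b, in the same table of the authors, was at 0.40 (adjusted p = 0.199), and Ces2g at -1.36 (adjusted p = 5.03e-31). Limma on RPKM called neither gene, but Ces2g was called lower with median scaling (-1.11) and with quantile normalization (-1.06). Of the 11 neighbouring genes limma called 0, although 6 had an adjusted p under 0.05 and 6 an unadjusted p under 0.05. The share of all genes under these thresholds is not given here, so these counts show nothing particular to the neighbours. Aktip was at -1.40 (adjusted p = 0.0895) and Pdp2 at -0.68 (adjusted p = 0.00197, limma), which were -1.73 and -1.02 relative to the median.

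Set side by side, FoxA and HNF4a deletion, as labelled, differed in which members were low. Ces1c and Ces1g were the members with the least RNA left in the triple null, at 1.61% and 1.41% of control, and neither was called lower in the libraries labelled HNF4a null, at 266% and 140% of control. Ces2a, Ces2c and Ces2e, which kept 85.1%, 147% and 145% of their FoxA3 null mean in the triple null, were at 1.19%, 4.66% and 0.570% of control in the libraries labelled HNF4a null. Ces1e, Ces3a and Ces3b were called lower in both. Hepatocytes and liver were fitted apart, so the difference between both comparisons was not tested.

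Other enzymes of ester and lipid hydrolysis, a list of 36 of which 34 were tested in hepatocytes, did not share one direction in the triple null against FoxA3 null. There 3 rose and 3 fell, beside the 4.17% and 3.95% of all genes called higher and lower, with a median difference of 0.06 against 0.05 for all genes. Acot1, an acyl-CoA thioesterase, was lower at -3.43, Ephx1, microsomal epoxide hydrolase, at -1.53 and Lcat, which esterifies plasma cholesterol, at -1.40. Lpl, lipoprotein lipase, was higher at 2.02, Abhd5, a partner of adipose triglyceride lipase, at 1.20 and Mgll, monoacylglycerol lipase, at 1.05, though Mgll missed the minimum size on leaving out replicate 1 of FoxA3 null (0.95) or replicate 4 of the triple null (0.90). In the libraries labelled HNF4a null, 8 of 35 tested fell and 4 rose, beside 5.95% of all genes called lower and 8.58% higher. Lipg reached the minimum level in the control libraries alone (5.21 and 8.29 RPKM). Pnpla3, also on the list, reached it only in those labelled HNF4a null (2.19 to 4.04 RPKM), so both had to differ. The 6 largest relative log2 differences were -4.60 for Lipc (hepatic lipase), -4.28 for Faah (fatty acid amide hydrolase), -3.81 for Aadac (arylacetamide deacetylase), -2.78 for Ephx2, -2.73 for Lipg and 2.53 for Acot1. The Lipg value rests on a gene let in by the group where it is high.

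A list of 25 transcription factors and receptors was read in the same way. In the triple null against FoxA3 null 3 fell and 0 rose, where 3.95% of all genes were called lower and 4.17% higher. They were the deleted genes, Foxa2 at -3.39 and Foxa1 at -1.13, and Nr5a2 at -1.005. The Nr5a2 call was lost without FoxA3 null replicate 1 (-0.80) or any of triple null replicates 1, 2 and 4 (-0.93 to -0.98). With the HNF4a null label 3 rose and 3 fell, where 8.58% of all genes were called higher and 5.95% lower. Hnf4a itself, whose rise against the label is given above, is on this list, at 430% of the control mean. Those that fell were Nr1i3 (the drug-sensing receptor CAR) at -5.14, Ppara at -2.52 and Cebpa at -1.77 relative to the median.

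The gene outside the 10 whose log2(RPKM + 1) followed each member most closely over the 15 hepatocyte libraries is given as a description, since these libraries share their groups and matrix. Pearson r was 0.994 between Ces1c and Itih2, 0.992 between Ces1g and Serpina3n, 0.99 between Ces3a and F11, and 0.979 between Ces2e and 4632419I22Rik. It was 0.967 between Ces2c and Ces2g, 0.961 between Ces2a and Smpd1, and 0.959 between Ces1d and Inmt. The likeness was lower for Ces1f with 2900026A02Rik at 0.917, Ces3b with Gpld1 at 0.901 and Ces1e with Sc5d at 0.894.

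The authors' deposited tables also compare hepatoblasts and newborn hepatocytes with adult hepatocytes, whose libraries are not stated. In the authors' deposited table for hepatoblasts all 10 members were lower, from -4.31 for Ces1g to -6.76 for Ces1c as log2 fold changes, where 30.5% of 13473 genes were lower and 34.2% higher by at least 1 with an adjusted p under 0.05. By the same criterion, in the authors' deposited table for newborns 4 members were lower, Ces3b at -11.83, Ces1f at -5.11, Ces3a at -3.22 and Ces2c at -2.94, and Ces2e was higher at 1.43, where 18.4% of genes were lower and 18.4% higher. Ces1c was at 0.21 (adjusted p = 0.196) and Ces1d at 0.90 (adjusted p = 0.174) in that deposited table of the authors. The authors' deposited table for newborns also has Ces1e at -1.01 (adjusted p = 0.13) and Ces2a at -0.50 (adjusted p = 0.0232), which miss the criterion. The members were thus all low in hepatoblasts and differed among themselves at birth, with Ces3b the lowest against adult.

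**Figure D4:**
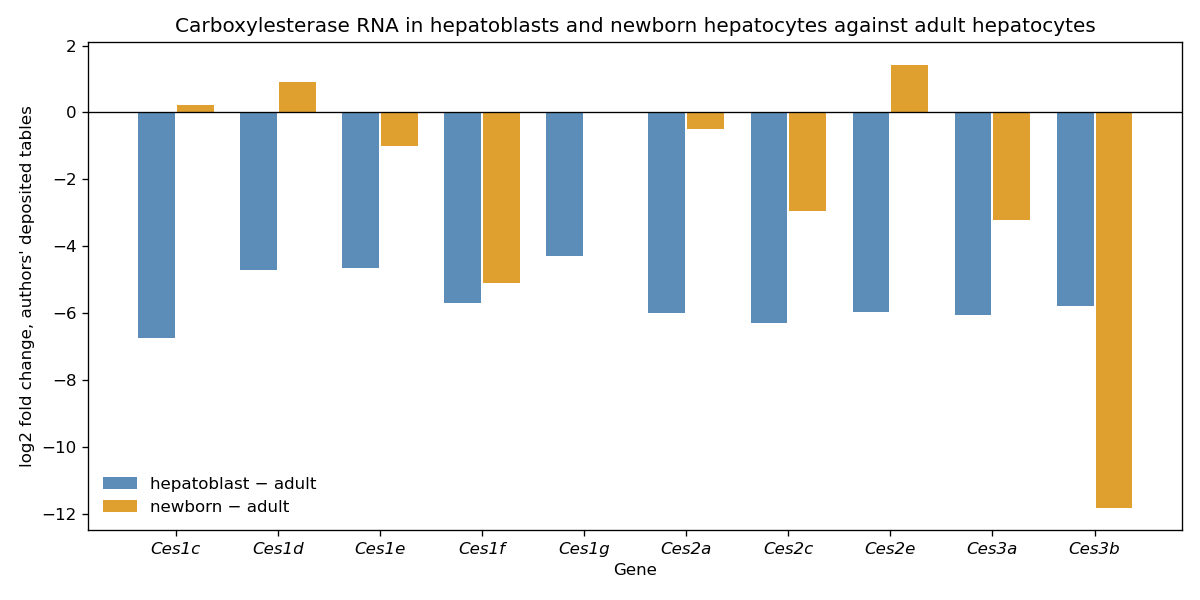
Log2 fold change of each gene in hepatoblasts (blue) and newborn hepatocytes (yellow) against adult hepatocytes, from the authors' deposited tables, with no error bars drawn. The blue bars of all 10 genes lie between -4.31 and -6.76, and the yellow bars range from -11.83 for Ces3b to 1.43 for Ces2e.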

How the data were processed

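RNA was measured by sequencing in 15 hepatocyte and 6 liver libraries. RPKM values were deposited by the authors as a matrix of 33773 genes; per the submitters' processing notes SAMtools, Cufflinks 2.2.1, DESeq2 and mm9 were used, with no role stated. Of its columns 9 matched no sample and were not used. HNF4a columns carry barcodes in place of replicate numbers. The log2 fold changes and p-values in the authors' deposited tables are those of the authors, per the file headers; the sign of one table was turned, and the p-values against Cre alfp were adjusted here.

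Differences were computed with limma 3.58.1 in R 4.3.3 (trend) on log2(RPKM + 1), keeping genes that reached 1 RPKM in 3 or more hepatocyte libraries or 2 or more liver libraries, with hepatocytes and liver fitted apart. The procedure was tested on simulated data. Promoter windows were aligned globally with Biopython 1.88. The members and lists were chosen with earlier results of these data known, and other genes are named by a rule: called members of the lists, at most 6 by size, neighbours of the arrays and the closest profile per member. Proteins of these genes and the chromatin data were not analysed here. Some genes of the lists and near the arrays are not reported here, and the counts leave them out. Alternatives were a pseudocount of 0.1, no minimum level, quantile normalization, median scaling, the replicate number as a block, fits on the compared groups alone and leaving out each library.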

Additional observations from a re-analysis of the deposited data

Results flagged for a closer look

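Of 40 sets of 4 libraries examined, 10 members in 4 groups, 2 held a value that stood apart from the others by Dixon's criterion. Chance alone meets it in about 1 of 20 sets, so about 2 are expected. Ces2e was at 217 RPKM in triple null replicate 3, where the others were at 174 to 179. Ces3b was at 186 RPKM in FoxA3 null replicate 4, where the others were at 222 to 229.

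The effect of the FoxA1/A2 deletion differed with FoxA3 status by limma's interaction test. Among carboxylesterases the log2 interaction was -5.89 for Ces1c, -3.23 for Ces1g, -2.71 for Ces1d, -2.16 for Ces1b, -2.14 for Ces3a, -1.56 for Ces1e and -1.44 for Ces1f. Among the other hydrolases it was -1.90 for Acot1, -1.40 for Lcat, -1.35 for Acot12, -1.21 for Lipc and 1.44 for Abhd5. For the nuclear receptor Nr5a2 it was -1.07, a call lost with no minimum level (adjusted p = 0.0544, limma) and, by falling under the minimum size, on leaving out replicate 1 of FoxA3 null (-0.87) or of the triple null. The way of deletion differed along with FoxA3, and its part was not tested.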

How the results depend on the processing

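Of 966 member values computed under the alternatives, 939 stayed on the same side of the call, 10 were no longer called and 17 became called, and 0 of the called values changed sign. Another 14 values that were not called changed sign. For Cre alfp against lox, 2 members were called with median scaling, and 0 to 2 when single libraries were left out; the count of all genes called was 182 with only the compared groups fitted and 177 to 284 over the libraries left out. For FoxA3 null against lox, 1303 genes were called with a pseudocount of 0.1, against 827. Why these counts moved was not tested. Without either HNF4a control library, Ces3a and Ces3b had no value. Replicate numbers did not pair the libraries: deviations of same-numbered triple null and FoxA3 null libraries correlated between -0.36 and 0.018, and of Cre alfp and lox between -0.203 and 0.116. With the replicate block, 6 members were called for the triple null set against FoxA3 null, and 1 for Cre alfp set against lox; the counts of members and their calls were those without it. No paired analysis was possible in liver because its columns carry no numbers. The liver libraries were the shallowest, so values under 1 RPKM there are the least precise.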
